A study of Drosophila sechellia and Drosophila simulans with 8 samples.

Results

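Gene expression in the bodies of adult Drosophila sechellia females was compared with that in adult Drosophila simulans females, both given a choice for blended octanoic and hexanoic acid. The comparison used 4 of the 8 arrays of the study: 2 of sechellia choice and 2 of simulans choice, taken by their titles. All 18769 probe sets that are not array controls were tested. The other 4 arrays, 2 each of sechellia no choice and simulans no choice, entered the same model. They are used below to set some species differences under choice beside those without choice. All females were reared at 25 °C on agar with yeast and cornmeal, and labelled cRNA was made from 7 micrograms of total RNA. The sources used here give neither age, nor the alternatives and length of the choice, nor whether the 2 arrays of a group hold RNA of different flies. The p-values therefore measure the spread between these arrays, which may be technical, and the number of arrays limits the precision of every value.

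D. sechellia breeds almost exclusively on Morinda citrifolia, whose ripe fruit holds much of both acids and is toxic to its close relatives, while D. simulans is a generalist that breeds in many fruits. A female body holds the gut, the fat body, the muscles and the ovaries, and its cuticle carries the long-chain hydrocarbons that serve as pheromones and as a barrier to water loss. Trypsins and Jonah proteases of the midgut split dietary protein, maltases split sugars, and follicle cells of the ovary make the vitelline membrane and the chorion that form the eggshell. The probes were designed for D. melanogaster, so a difference between the species in the sequence under a probe and a difference in RNA cannot be told apart. In whole bodies, fewer cells of a type and less RNA per cell cannot be told apart either.

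The 2 sechellia choice arrays were not alike. Array 1 had a median signal of 316.7, against 129.8 on array 2 and 113.0 and 120.2 on the simulans choice arrays. Its Bacillus control probe sets, which match no fly RNA, had a median of 126.4, against 12.3 on array 2 and 17.7 and 12.5 on the simulans arrays. On the log2 scale array 1 correlated with array 2 at Pearson r 0.780 across probe sets, whereas array 2 correlated with each simulans array at 0.927. Dim probe sets read high on array 1 and bright ones read low. Where simulans averaged under 25, array 1 stood a median of 3.39 log2 units above simulans and array 2 stood 0.39 above, and where simulans averaged 6400 or more, array 1 stood at -0.98 and array 2 at 0.06. The comparisons were therefore made in 3 ways: with both arrays as deposited, with array 2 alone (a fit to 7 arrays, in which the spread of sechellia choice is taken from the other groups), and with both arrays after quantile normalisation.

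**Figure D1:**
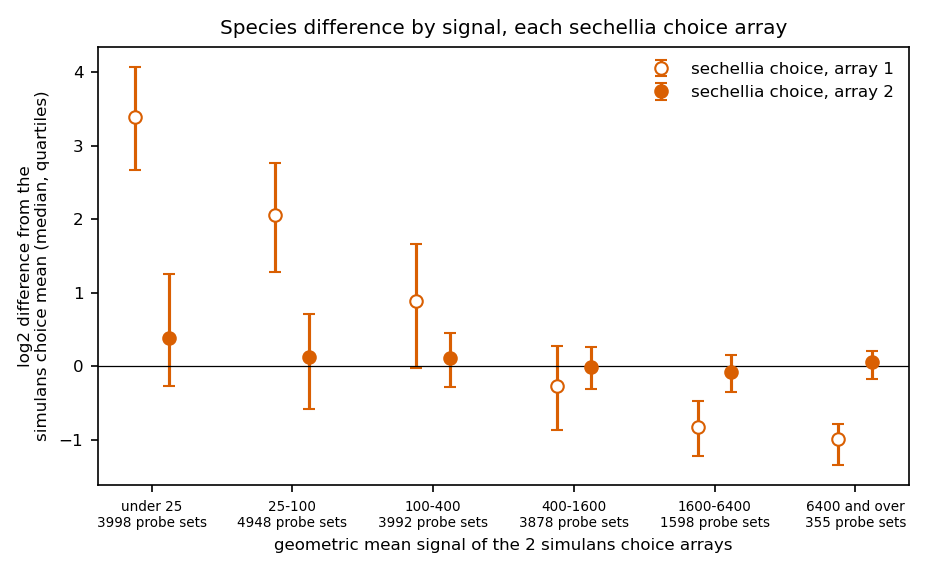
Log2 difference of each sechellia choice array from the mean of the 2 simulans choice arrays, by the simulans signal. Points are medians over the probe sets of a bin and bars reach the quartiles; array 1 runs from 3.39 in the dimmest bin to -0.98 in the brightest, and array 2 stays between -0.08 and 0.39.

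The tissue label was checked with marker genes. The yolk protein and yolk receptor genes, made in the fat body and ovary of females, summed to 41611 and 86735 on the sechellia arrays, against 74256 and 75981 on the simulans arrays, with none of the 4 at background. The 7 chorion genes summed to 30152 and 70597 in sechellia and to 86025 and 86190 in simulans. The 6 head and eye genes summed to 3700 on sechellia array 1 and to 952 on array 2, against 692 and 669 in simulans, and 2 of them lay at or below background on each array other than array 1. The 35 male reproductive genes summed to 11100 and 2437 in sechellia, against 2409 and 2518 in simulans. The part of the high array 1 readings in the results was not tested, but array 2 alone, which lacks them, is given beside most results.

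With both arrays, 483 of 18769 probe sets (2.57%) differed between the species under choice (limma, Benjamini-Hochberg adjusted p below 0.05). Of these, 217 (1.16%) were higher in sechellia and 266 (1.42%) lower, and 209 and 246 of them differed at least 2-fold. Array 2 alone gave 2265 calls (12.1%), 1125 higher (5.99%) and 1140 lower (6.07%). Quantile normalisation of all arrays gave 496 calls (2.64%), 260 higher (1.39%) and 236 lower (1.26%), and the same normalisation without array 1 gave 2481 (13.2%), 6.37% higher and 6.85% lower. All 483 probe sets kept their direction with array 2 alone and after quantile normalisation of both arrays. Of them, 482 passed with array 2 alone and 264 passed with both arrays quantile normalised. These same 264 (1.41%), 123 higher (0.655%) and 141 lower (0.751%), passed in all 4 settings. Both sechellia choice arrays lay above both simulans choice arrays in 32.8% of all probe sets and below them in 14.6%. The median log2 difference over 11982 genes, each by its brightest probe set, was 0.33 with both arrays, 0.07 with array 2 alone and -0.03 after quantile normalisation, so medians of gene groups are given below relative to these. By the same count of genes, 3.36% were called with both arrays, 15.5% with array 2 alone and 3.33% after quantile normalisation. These shares, in that order, are the background for each group of genes below.

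The 12 largest differences in which sechellia was lower included 6 genes of the trypsin and Jonah protease list and an acyl-CoA-binding protein. Genes of hydrocarbon synthesis were among the 12 largest in which it was higher. epsilonTry, a trypsin, read 131.8 and 44.4 in sechellia, against 10740.4 and 10576.3 in simulans. Jon25Biii, a Jonah protease, read 162.6 and 54.1 in sechellia and 8958.6 and 9206.1 in simulans. Acbp5, of the family that binds and carries acyl-CoA esters, read 111.0 and 84.3, against 9483.8 and 9157.0. In each of these genes both sechellia arrays lay far below both simulans arrays. Without choice, in the fit of 8 arrays, the species differences were log2 -6.55, -6.43 and -9.06. The array 1 reading of Acbp5 lay below that array's Bacillus controls and that of epsilonTry just above them, so the sizes with both arrays rest partly on readings near background. With both arrays the differences were 139-fold, 96.8-fold and 96.3-fold (log2 -7.12 ± 0.49, -6.60 ± 0.41 and -6.59 ± 0.22, standard errors with n = 2 arrays each; adjusted p = 0.000132, 9.93e-05 and 2.02e-06). Array 2 alone gave log2 -7.91, -7.39 and -6.79, which are 240-fold, 168-fold and 111-fold, and quantile normalisation gave -7.91, -7.24 and -7.52. All 3 passed in every setting.

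The other 9 of the 12 largest lower genes ranged from log2 -5.89 (Jon65Aiv) to -4.02 (CG4783). They included Jon65Aiv, Jon25Bi, betaTry and Jon74E of the trypsin and Jonah protease list, beside CG17571, CG18180, CG4476, CG5568 and CG4783. That list takes no CG-numbered gene, so it does not say which of those 5 are proteases. CG17571 read 307.0 and 126.9 in sechellia, against 7473.6 and 6977.4 in simulans (-5.19; array 2 alone -5.83; quantile -5.70). All 9 passed with array 2 alone, between -6.18 and -3.23. After quantile normalisation they lay between -6.42 and -3.98, and all but CG4783 (-5.29, adjusted p = 0.075) passed. The array 1 readings of CG18180, CG4476 and CG4783 (104.7, 101.6 and 65.7) lay below that array's Bacillus controls (126.4). That of CG5568 (127.2) lay just above them, so these sizes with both arrays also rest partly on readings near background.

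Fad2, the desaturase that makes the doubly unsaturated hydrocarbons of female cuticle in D. melanogaster, read 2629.4 and 4227.2 in sechellia, against 60.0 and 75.5 in simulans. eloF, an elongase of the same pathway, read 1262.7 and 1200.4 in sechellia and 62.1 and 48.0 in simulans. Both sechellia arrays stood above both simulans arrays, by 49.5-fold for Fad2 (log2 5.63 ± 0.31, adjusted p = 5.45e-05) and by 22.5-fold for eloF (4.50 ± 0.36, adjusted p = 0.00032). Array 2 alone gave 5.97 and 4.46, and quantile normalisation gave 5.76 and 4.43. CG6733 showed the largest difference in this direction, with signals of 1386.7 and 2134.4 in sechellia against 20.5 and 50.8 in simulans (5.74 ± 0.48, adjusted p = 0.000473; array 2 alone 6.05; quantile 5.61). drl, a receptor tyrosine kinase gene that binds Wnt5, read 1893.9 and 3358.8 in sechellia and 160.8 and 161.2 in simulans (3.97 ± 0.27, adjusted p = 0.000125; array 2 alone 4.38; quantile 4.08). Without choice, in the fit of 8 arrays, the species differences of Fad2, eloF, CG6733 and drl were 4.92, 3.915, 5.71 and 4.99.

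Some of the largest differences rested on low simulans signals. Nepl19, of the neprilysin-like peptidases, read 539.7 and 159.8 in sechellia, against 8.1 and 10.8 in simulans. CG31380 read 159.9 and 319.8 in sechellia and 9.0 and 10.9 in simulans, and CG4438 read 426.9 and 81.7 against 7.8 and 12.2. The simulans readings of these 3 lay at or below the Bacillus controls of their arrays, so the differences are bounds: sechellia was at least 19.7-fold higher for Nepl19, 15.2-fold for CG31380 and 12.6-fold for CG4438, and at least 10.7-fold, 21.5-fold and 5.49-fold higher with array 2 alone. On signals raised to background Nepl19 and CG31380 passed (adjusted p = 0.0332 and 0.0282), and CG4438 passed with array 2 alone (adjusted p = 0.0347) but not with both arrays (adjusted p = 0.0653; 0.0496 on the signals as deposited). CG31380 did not pass after quantile normalisation (log2 3.31, adjusted p = 0.123). The other members of the 12 were Veneno, CG15263, CG14499, CG9497 and nompB, a gene of intraflagellar transport in cilia, at log2 4.04 to 5.12, at 3.82 to 5.02 with array 2 alone and at 2.98 to 4.55 after quantile normalisation. CG15263 and CG9497 did not pass after quantile normalisation either, at 3.26 (adjusted p = 0.167) and 2.98 (adjusted p = 0.171).

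**Figure D2:**
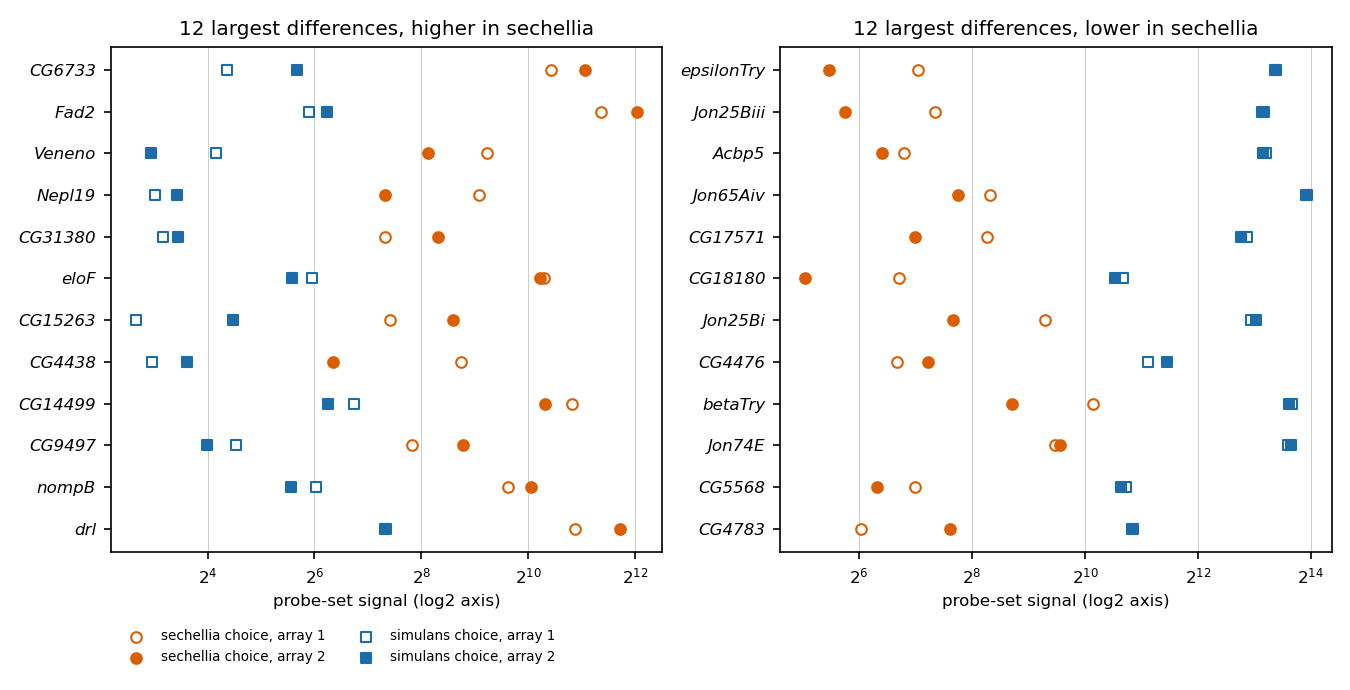
Probe-set signal on each choice array, on a log2 axis, for the 12 genes with the largest differences in each direction (left higher in sechellia, right lower). Orange circles are sechellia and blue squares simulans, open for array 1 and filled for array 2. The genes were picked by their differences on these same arrays, so the lack of overlap in all 24 is no separate result. Array 1 of sechellia lies above array 2 in epsilonTry, at 131.8 against 44.4.

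The group of digestive trypsins and Jonah proteases held 22 measured genes, of which sechellia was lower in 10 and higher in 3 with both arrays, beside 1.42% and 1.16% of all probe sets. Array 2 alone called 13 lower and 3 higher, and quantile normalisation called 9 lower and 1 higher. That is 59.1%, 72.7% and 45.5% of the group. The median of the group lay 2.84 log2 units below that of all genes with both arrays (-2.84), and at -2.57 and -2.97 in the other settings. Lower were epsilonTry, betaTry and alphaTry among the trypsins, and Jon25Biii, Jon65Aiv, Jon25Bi, Jon74E, Jon65Ai, Jon65Aii and Jon25Bii among the Jonah genes. betaTry read 1134.7 and 416.0 in sechellia, against 13028.6 and 12586.7 in simulans (-4.22 ± 0.38, adjusted p = 0.000605; array 2 alone -4.94; quantile -3.98). alphaTry read 1448.3 and 1664.6, against 12965.8 and 13316.4 (-3.08, adjusted p = 0.000469; array 2 alone -2.98; quantile -2.79).

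The higher trypsins were lambdaTry, zetaTry and etaTry, so the group did not move in a single direction. lambdaTry read 4646.2 and 10471.5 in sechellia and 1609.4 and 1833.2 in simulans (2.02 ± 0.34, adjusted p = 0.0164; array 2 alone 2.61; quantile 2.43). zetaTry read 633.2 and 570.4, against 220.1 and 251.3 (1.35), and etaTry 502.6 and 494.3, against 224.0 and 181.1 (1.31). With array 2 alone these were 1.28 and 1.29 and passed, and after quantile normalisation they were 1.10 (adjusted p = 0.115) and 0.86 (adjusted p = 0.262). Jon44E, Jon99Ci and thetaTry were lower with array 2 alone, at -5.17, -4.32 and -1.19, and with both arrays gave -3.36, -2.68 and -0.90 (adjusted p = 0.0824, 0.169 and 0.133) and after quantile normalisation -3.30, -3.23 and -1.52, where none passed. In Jon44E the 2 sechellia arrays were far apart, at 718.1 and 58.6, against 2080.1 and 2139.7 in simulans. Jon65Aiii, at 3980.4 and 5260.7 in sechellia and 5697.9 and 5650.2 in simulans, did not pass (-0.31; array 2 alone -0.11; quantile 0.19). Members of the Jonah and trypsin families resemble each other in sequence, and whether a probe set reads a related gene was not tested.

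**Figure D3:**
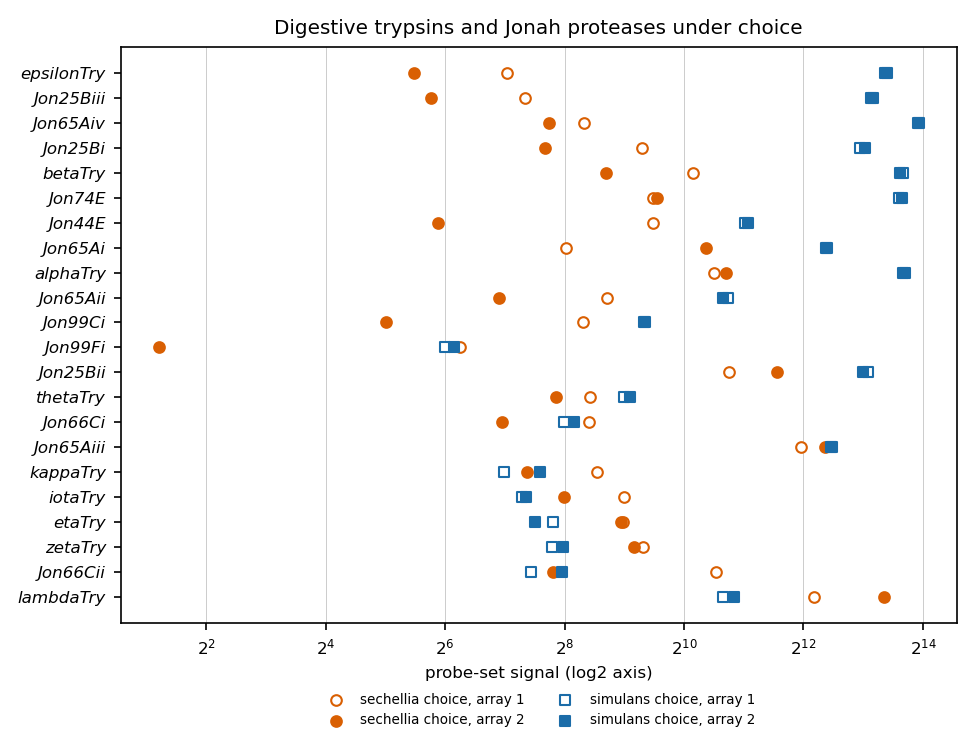
Signal of 22 digestive trypsins and Jonah proteases on each choice array, on a log2 axis. Orange circles are sechellia and blue squares simulans, open for array 1 and filled for array 2; epsilonTry, Jon25Biii and Jon65Aiv show the widest gaps, and lambdaTry is higher on both sechellia arrays.

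Among sugar-splitting enzymes, 4 of 12 genes of the amylase and maltase group were higher in sechellia and 1 was lower with both arrays. Array 2 alone and quantile normalisation each gave 6 higher and 1 lower, so that 41.7%, 58.3% and 58.3% of the group were called. The group median relative to all genes was 0.45, 0.62 and 0.72. Mal-A3 read 1244.1 and 2963.4 in sechellia, against 575.7 and 547.8 in simulans (1.77, adjusted p = 0.0323; array 2 alone 2.40; quantile 1.90). Mal-A7 read 1254.0 and 1406.0, against 422.3 and 479.5 (1.56, adjusted p = 0.00381; array 2 alone 1.64; quantile 1.67). Mal-A2 was also higher, at 1.52 (array 2 alone 1.35; quantile 1.41), as was tobi, a glucosidase-like gene that responds to insulin-producing cells, at 1.03 (array 2 alone 1.24; quantile 1.33). Mal-B1 went the other way, with 251.3 and 247.0 in sechellia against 2495.8 and 2403.2 in simulans (-3.30 ± 0.29, adjusted p = 0.000571; array 2 alone -3.31; quantile -3.90). Mal-A1 and Mal-B2 were higher with array 2 alone, at 1.44 and 0.84, and after quantile normalisation, at 1.11 and 1.0, but not with both arrays as deposited (0.81 and 0.80; adjusted p = 0.239 and 0.0508).

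Of the 6 acyl-CoA-binding protein genes, Acbp5 was the member that passed with both arrays. Acbp1, Acbp2, Acbp4 and Acbp6 passed in none of the 3 settings: they gave -0.80, -0.34, -0.20 and -0.38 with both arrays, -0.04, 0.03, -0.59 and -0.39 with array 2 alone, and -1.0, 0.16, -0.95 and -1.23 after quantile normalisation. Acbp3 read 1363.6 and 2681.8 in sechellia, against 1983.3 and 1891.3 in simulans: the sechellia arrays lay on either side of simulans. Its difference was -0.02 with both arrays and 0.21 after quantile normalisation (adjusted p = 0.971 and 0.538), and array 2 alone called it higher at 0.47 (adjusted p = 0.00831). None of 19 genes of lipid storage and breakdown passed with both arrays or after quantile normalisation, and array 2 alone called 4 higher and 1 lower (26.3%, beside 15.5% of all genes). The 1 lower gene was mag, which encodes the secreted gut lipase magro, at 844.8 and 246.4 in sechellia against 969.5 and 833.8 in simulans (-1.87 with array 2 alone, adjusted p = 0.000433; -0.98 with both arrays; quantile -0.95).

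The 12 genes of cuticular hydrocarbon synthesis had 3 higher and none lower with both arrays, namely Fad2, eloF and Desat2, and 4 higher and none lower with array 2 alone or after quantile normalisation. That is 25% with both arrays and 33.3% in either other setting. Desat2, a desaturase known in D. melanogaster for a difference in female hydrocarbons between populations, read 2683.9 and 1578.1 in sechellia, against 209.1 and 269.5 in simulans (3.12 ± 0.28, adjusted p = 0.000571; array 2 alone 2.73; quantile 3.39). The fourth gene was the fatty acid synthase FASN1, with 9935.0 and 19709.8 in sechellia against 13071.0 and 12909.2 in simulans. Its difference was 0.60 with array 2 alone and 0.55 after quantile normalisation (adjusted p = 0.00368 and 0.00300), and 0.11 with both arrays (adjusted p = 0.87). Desat1, which acts early in the pathway, and Cyp4g1, the decarbonylase that makes the final hydrocarbon, passed in none of the 3 settings: -0.17 and -0.47 with both arrays, 0.29 and -0.01 with array 2 alone, 0.27 and -0.11 after quantile normalisation. The group median relative to all genes was 0.06, 0.51 and 0.44.

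Eggshell genes that passed under choice were mostly lower in sechellia. Of 7 chorion genes, 1 was lower and none higher with both arrays (14.3%), array 2 alone called 4 lower (57.1%), and quantile normalisation called 3 lower (42.9%), beside 3.36%, 15.5% and 3.33% of all genes. Cp15 was the gene that passed with both arrays: 2666.2 and 4828.2 in sechellia, against 9610.6 and 10607.2 in simulans (-1.49 ± 0.31, adjusted p = 0.0401; array 2 alone -1.06; quantile -1.04). Cp18 and Cp19 were lower with array 2 alone, at -0.69 and -0.48, and after quantile normalisation, at -1.01 and -0.84, and Cp16 with array 2 alone at -0.65. With both arrays these 3 gave -1.45, -1.23 and -0.83 and did not pass, nor did Cp16 after quantile normalisation (-0.35). Cp36, Cp38 and Cp7Fc passed in none of the 3 settings, at -0.68, -0.52 and -0.23 with both arrays, -0.03, 0.13 and 0.30 with array 2 alone, and -0.26, -0.14 and 0.09 after quantile normalisation. Array 1 was lower than both simulans arrays in all 7 genes and array 2 in 5 of them, in a range of signal where array 1 reads low in general. Of all 18769 probe sets, 5143 read below both simulans arrays on array 1 and 6439 on array 2.

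Among 13 vitelline membrane and eggshell crosslinking genes, 2 were lower with both arrays (15.4%). dec, an eggshell protein gene needed for an intact chorion, read 2669.1 and 3216.6 in sechellia and 8997.8 and 9028.9 in simulans (-1.62 ± 0.22, adjusted p = 0.00624; array 2 alone -1.49; quantile -1.14). Vm34Ca, a vitelline membrane protein gene, read 5420.4 and 7193.5, against 16069.2 and 16511.5 (-1.38, adjusted p = 0.0387; array 2 alone -1.18; quantile -0.94). Array 2 alone called 5 lower and 1 higher (46.2%), adding clos (-0.81), yellow-g (-0.49) and fs(1)N (-0.40) on the lower side, and the peroxidase gene Pxt at 0.56 on the higher side. With both arrays these 4 gave -0.57, -0.86, -0.86 and 0.15 and did not pass. Quantile normalisation called 2 lower and 1 higher (23.1%), the higher gene being Pxt at 0.62. The yolk genes Yp1, Yp2 and Yp3 and the yolk receptor gene yl did not pass with both arrays (-0.61, -0.18, 0.01 and -1.26), with array 2 alone (0.05, 0.32, 0.39 and -0.31) or after quantile normalisation (-0.18, 0.09, 0.38 and -0.95). Of 34 female germline genes, plu, which acts in the early embryonic cell cycle, was higher at 1.24 (array 2 alone 0.96; quantile 1.21, adjusted p = 0.0972) and otu, an ovarian deubiquitinase gene, lower at -1.02 (array 2 alone -0.76; quantile -0.77). Array 2 alone called 2 higher and 8 lower (29.4%), and quantile normalisation called 2 lower (5.88%).

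Fewer eggshell genes were lower in sechellia under choice than without it, and the test of that difference passed for many of them with array 2 alone, for 2 after quantile normalisation and for none with both arrays as deposited. The median of the 7 chorion genes relative to all genes was -1.16 under choice with both arrays -0.55 with array 2 alone and -0.32 after quantile normalisation, against -2.37 without choice, where 6 of the 7 were lower. Cp16 read 3450.7 and 4470.5 in sechellia under choice and 1139.1 and 1073.7 without, while simulans read 7322.0 and 6697.6 under choice and 8665.7 and 8039.3 without. The difference between these species differences, choice minus no choice, was 2.08 with both arrays (adjusted p = 0.172), 2.27 with array 2 alone (adjusted p = 0.000105) and 2.43 after quantile normalisation (adjusted p = 0.0535). With both arrays none of the 7 chorion and 13 vitelline and crosslinking genes passed this test. With array 2 alone all 7 chorion genes passed, between 0.91 (Cp15) and 2.63 (Cp7Fc), and 9 of the 13 passed upward and 1, fs(1)N, downward, beside 1.23% of all probe sets. yellow-g2 and Vm32E had the largest values among these 13, at 3.14 and 2.88 (adjusted p = 0.000105 and 0.00555), where both arrays gave 2.52 and 1.84 (adjusted p = 0.394 and 0.706) and quantile normalisation 2.54 and 0.95 (adjusted p = 0.3 and 0.789). After quantile normalisation Cp36 and Cp38 passed, at 1.75 and 1.57 (adjusted p = 0.0177 each), and the other 18 did not.

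**Figure D4:**
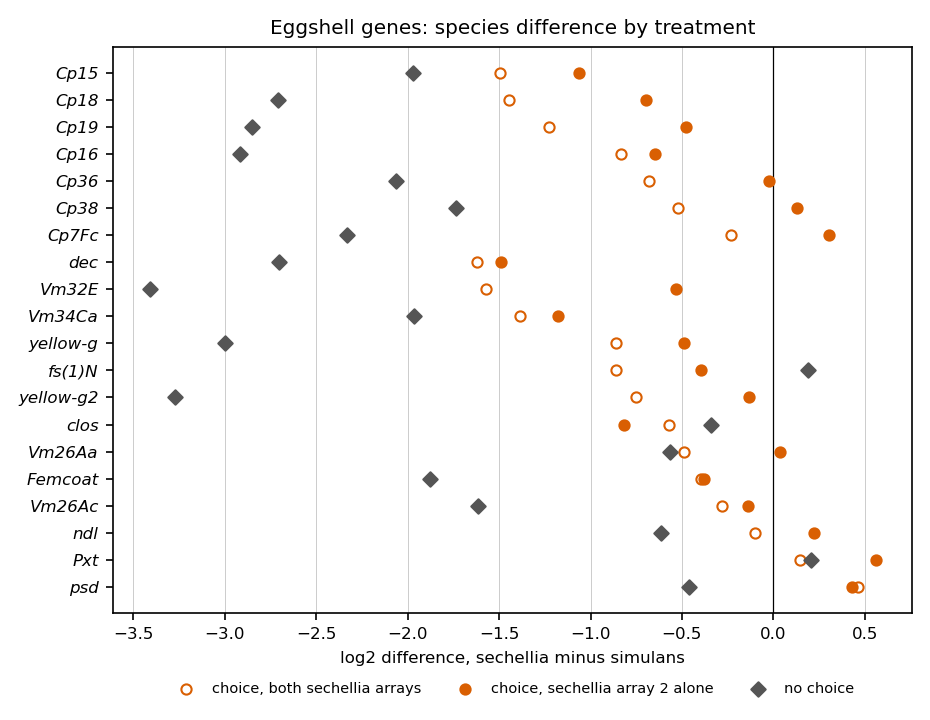
Log2 difference, sechellia minus simulans, of 7 chorion genes and 13 vitelline membrane and eggshell crosslinking genes, under choice (orange; open with both sechellia arrays, filled with array 2 alone) and without choice (grey diamonds). Cp16 stands at -0.83 and -0.65 under choice and at -2.92 without.

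Over all probe sets, 508 (2.71%) differed between the species without choice, 1.12% higher and 1.59% lower in sechellia, and 471 of the 483 called under choice had the same sign there. The 2 lists shared 271 probe sets, all in the same direction. The test of choice minus no choice passed for 2 probe sets with both arrays (0.0107%), 231 with array 2 alone (1.23%; 124 higher, 0.661%, and 107 lower, 0.570%) and 3 after quantile normalisation (0.0160%), namely Cp36, Cp38 and Jon25Bii (1.84, adjusted p = 0.0428). At an unadjusted p under 0.05, 1162 of the 18769 probe sets passed with both arrays, in a test where 0.05 of them would pass without any difference. Jon65Aiv read 320.4 and 214.2 in sechellia under choice and 4.6 and 7.9 without choice, while simulans read 15486.8 and 15647.0 under choice and 13031.1 and 15083.1 without. The species difference was thus -5.89 under choice and -11.18 without, and they differed by 5.29 (adjusted p = 0.00533; array 2 alone 5.0, adjusted p = 0.000425; quantile 4.36, adjusted p = 0.0656). Of the 22 digestive proteases it was the single gene that passed with both arrays as deposited; array 2 alone called 6 upward and 1, Jon25Biii (-0.96), downward. The sechellia readings of Jon65Aiv without choice lay below the Bacillus controls, and with all signals raised to that background the 2 species differences differed by 3.79 with both arrays and by 3.50 with array 2 alone (adjusted p = 0.000116).

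CG2233, the other gene that passed, read 1833.7 and 1576.6 in sechellia under choice and 297.8 and 274.7 without, against 4824.9 and 5361.9 in simulans under choice and 5550.1 and 5272.3 without. Its species difference was -1.58 under choice and -4.24 without, and the 2 differed by 2.66 (adjusted p = 0.0258; array 2 alone 2.55, adjusted p = 0.000105; quantile 2.78, adjusted p = 0.133). With array 2 alone, choice minus no choice was 2.86 for CG6295 and 3.42 for the homeobox gene Hmx. With both arrays they gave 2.27 and 3.76 (adjusted p = 0.514 and 0.215), and after quantile normalisation 2.19 and 3.12 (adjusted p = 0.47 and 0.434). Hmx read 459.0 and 283.4 in sechellia under choice and 71.8 and 100.7 without, against 67.7 and 81.6 in simulans under choice and 263.2 and 215.3 without, and its other 2 probe sets gave species differences of 0.43 and 1.22 under choice that did not pass. Those 2 probe sets gave 0.161 and 0.17 with array 2 alone, and -0.82 and -0.236 after quantile normalisation. On the lower side, shtd, a subunit gene of the anaphase-promoting complex, gave -2.11 with array 2 alone. Both arrays gave -1.86 (adjusted p = 0.706; quantile -2.49, adjusted p = 0.531). ctp, a dynein light chain gene, also gave -2.11 with array 2 alone. Both arrays gave -1.52 for it (adjusted p = 0.706; quantile -1.45, adjusted p = 0.702). Its second probe set disagreed in sign under choice: the species differences of the 2 probe sets were -0.80 and 3.33. With array 2 alone they were -1.386 and 3.255, and after quantile normalisation -0.759 and 3.319. ac, a proneural transcription factor gene, and CG33978 gave -4.155 and -2.08 with both arrays (adjusted p = 0.706 and 0.775). After quantile normalisation they gave -5.01 and -2.96 (adjusted p = 0.47 and 0.702). With array 2 alone they gave -6.07 and -5.52, but their sechellia readings of 7.9 and 1.6 on that array lay below background. With signals raised to background ac gave -4.28 (adjusted p = 0.0262), and CG33978 gave -2.57 and did not pass (adjusted p = 0.174). A second probe set of CG33978 gave species differences under choice of 0.84 with both arrays and -0.30 with array 2 alone, neither of which passed. Acbp5 gave 2.27 with array 2 alone (adjusted p = 0.000498) and 2.47 with both arrays (adjusted p = 0.0834; quantile 1.12, adjusted p = 0.702), with sechellia at 111.0 and 84.3 under choice and 17.8 and 15.6 without.

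Of 47 odorant-binding protein genes, 2 were higher and 1 lower with both arrays (6.38%), 3 higher and 4 lower with array 2 alone (14.9%), and 1 higher and 2 lower after quantile normalisation (6.38%). With array 2 alone that share was near the 15.5% of all genes. Obp99b read 1620.6 and 3771.5 in sechellia, against 373.8 and 310.1 in simulans (2.86 ± 0.34, adjusted p = 0.00316; array 2 alone 3.47; quantile 3.02). Obp44a read 809.8 and 606.1, against 345.6 and 281.3 (1.17; array 2 alone 0.96; quantile 1.10, adjusted p = 0.107). Obp56e was lower, at 363.3 and 187.7 in sechellia against 791.7 and 749.1 in simulans (-1.56, adjusted p = 0.042; array 2 alone -2.04; quantile -2.12). None of 57 odorant, 56 gustatory and 53 ionotropic receptor genes passed with both arrays or after quantile normalisation, and array 2 alone called 1 ionotropic receptor gene lower. On array 1, 56 of the 57 odorant receptor genes, 54 of the 56 gustatory and all 53 ionotropic ones read above both simulans arrays, and on array 2, 25, 28 and 25 did. Of all 18769 probe sets, 12740 read above both simulans arrays on array 1 and 8248 on array 2.

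Several genes had been tied to the use of Morinda by D. sechellia in earlier work, and 12 of them were measured. They are odorant-binding protein genes, receptors for Morinda odours (Or22a, Or85b, Or85c and Ir75b), Catsup, a regulator of dopamine synthesis tied to egg production, and the Osiris genes Osi6, Osi7 and Osi8 at a locus for resistance to octanoic acid. Obp56e was the member that passed with both arrays. Osi6 read 85.5 and 8.7 in sechellia, against 638.3 and 534.8 in simulans, and Obp18a read 91.8 and 7.7, against 534.7 and 508.0. The sechellia readings of both genes lay at or below background on both arrays. With array 2 alone sechellia was at least 47.5-fold lower for Osi6 and at least 42.4-fold lower for Obp18a, and with both arrays at least 14.8-fold and 13.2-fold. On signals not raised to background, both genes passed after quantile normalisation (adjusted p = 0.0114 and 0.0102). With both arrays as deposited they did not pass (adjusted p = 0.0627 and 0.0671).

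The remaining 9 of these genes passed in none of the 3 settings. Or22a, Or85b and Or85c gave 0.51, 1.22 and 0.39 with both arrays, -0.99, 0.34 and -1.35 with array 2 alone, and -0.57, 0.47 and -0.31 after quantile normalisation. In the same order of settings, Ir75b gave 1.34, 0.13 and 0.45, Osi7 gave 0.68, -0.44 and -0.28, Osi8 gave 1.16, -0.21 and -0.26, and Catsup gave -0.20, -0.01 and -0.40. The sign of Or22a, Or85c, Osi7 and Osi8 thus turned in both other settings. Obp57e, tied to egg laying on Morinda, read 120.6 and 12.8 in sechellia, against 5.2 and 6.5 in simulans, and Obp50a read 301.6 and 19.7, against 3.0 and 5.9; simulans lay at or below background in both. As deposited, these 2 genes gave 2.757 and 4.195 with both arrays and 1.139 and 2.227 with array 2 alone. After quantile normalisation they gave 1.413 and 3.23. With simulans raised to background the bounds were log2 1.401 and 2.374 with both arrays. With array 2 alone the bound was 0.405 for Obp50a, and Obp57e had none. The sechellia readings of Obp57e lay below the Bacillus controls on array 1 (126.4) and just above them on array 2 (12.3). Over the whole Osiris family of 23 genes, none passed with both arrays, and array 2 alone called 3 lower (13%, beside 15.5% of all genes): Osi6, Osi14 (-3.77) and Osi15 (-3.25). Quantile normalisation called Osi6 and Osi15 (8.7%). The family's median relative to all genes was 0.83 with both arrays, -0.47 with array 2 alone and 0.29 after quantile normalisation, so its sign depends on array 1.

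Of 83 genes of cytochrome P450 enzymes, which oxidise foreign compounds and hormones, 5 were higher and 3 lower with both arrays (9.64%), 7 higher and 11 lower with array 2 alone (21.7%), and 2 higher after quantile normalisation (2.41%). Cyp6a8 read 1367.7 and 1052.0 in sechellia and 328.8 and 340.1 in simulans (1.84 ± 0.25, adjusted p = 0.00624; array 2 alone 1.65; quantile 1.97). Cyp6g1, known for insecticide resistance in D. melanogaster, read 1656.0 and 1453.5, against 4834.9 and 4371.6 (-1.57 ± 0.21, adjusted p = 0.00642; array 2 alone -1.66; quantile -1.21, adjusted p = 0.0627). Cyp12e1 and Cyp49a1 were higher at 2.62 and 2.42, and Cyp6a20 and Cyp313a1 lower at -1.79 and -1.62. These 4 did not pass after quantile normalisation (2.60, 1.46, -2.83 and -2.66; adjusted p = 0.0953, 0.295, 0.123 and 0.102), and passed with array 2 alone at 1.76, 2.61, -1.58 and -1.63. A second probe set of Cyp12e1 gave 1.36 with both arrays and did not pass. It gave 0.234 with array 2 alone and 0.613 after quantile normalisation. The array 1 readings of Cyp6a20 and Cyp313a1, at 121.4 and 123.1, lay below that array's Bacillus controls (126.4).

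Of 37 glutathione transferase genes, which couple glutathione to reactive compounds, 1 was higher and 4 lower with both arrays (13.5%), 6 higher and 5 lower with array 2 alone (29.7%), and 2 higher and 2 lower after quantile normalisation (10.8%). GstE6 read 646.8 and 457.0 in sechellia, against 4481.2 and 4379.4 in simulans (-3.03 ± 0.22, adjusted p = 0.000226; array 2 alone -3.28; quantile -3.05). GstE1 read 126.7 and 211.0, against 1079.6 and 1084.4 (-2.73; array 2 alone -2.36; quantile -3.67, adjusted p = 0.0615). Its array 1 reading lay just above that array's Bacillus controls (126.4). GstE9 was lower at -1.85 (array 2 alone -1.76; quantile -1.91) and GstO2 higher at 1.20 (array 2 alone 1.22; quantile 1.34), while a second probe set of each, at 1.37 and 0.67, did not pass. These second probe sets gave 0.817 and -0.115 with array 2 alone, and -0.196 and 0.719 after quantile normalisation. Of 35 UDP-glycosyltransferase genes, Ugt35C1 was the single call with both arrays (2.86%), lower at 125.1 and 261.5 in sechellia against 900.2 and 909.4 in simulans (-2.32, adjusted p = 0.0106; array 2 alone -1.79; quantile -3.30, adjusted p = 0.119). The array 1 reading of Ugt35C1 lay below that array's Bacillus controls (126.4). Array 2 alone called 3 higher and 5 lower (22.9%), and quantile normalisation none. None of 12 carboxylesterase genes passed with both arrays or after quantile normalisation, and array 2 alone called alpha-Est3, alpha-Est7 and alpha-Est8 higher (25%), at 1.19, 1.13 and 0.84; with both arrays they gave 0.89, 0.91 and 1.06, and after quantile normalisation 0.83, 0.97 and 0.96.

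Of 22 antimicrobial peptide and Bomanin genes, 1 was higher and 3 lower with both arrays and after quantile normalisation (18.2% each), and 5 were higher and 5 lower with array 2 alone (45.5%), beside 3.36%, 3.33% and 15.5% of all genes. Mtk, an antifungal peptide gene, read 5039.0 and 7052.8 in sechellia, against 1939.5 and 1993.9 in simulans (1.60 ± 0.21, adjusted p = 0.00572; array 2 alone 1.84; quantile 2.03). Drsl4, a relative of drosomycin, read 1026.5 and 515.4, against 4543.7 and 4686.0 (-2.67 ± 0.29, adjusted p = 0.00171; array 2 alone -3.16; quantile -2.46). BomBc3, a Bomanin gene, was lower at -2.21 (array 2 alone -2.31; quantile -2.32), and Drs, the antifungal drosomycin, at -1.31 (array 2 alone -0.91; quantile -0.94). Mtk was also higher without choice, by 2.94, where sechellia read 2904.6 and 3080.3 and simulans 408.2 and 369.7. Choice minus no choice was -1.345 with both arrays (adjusted p = 0.706), -1.10 with array 2 alone and -0.74 after quantile normalisation (adjusted p = 0.702). DptB, a diptericin against Gram-negative bacteria, and Def, a defensin, were higher with array 2 alone, at 2.20 and 1.36, and gave 1.66 and 1.06 with both arrays (adjusted p = 0.132 and 0.0870) and 1.41 and 1.20 after quantile normalisation (adjusted p = 0.283 and 0.0600).

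Among 11 immune recognition genes, PGRP-SB1 and PGRP-LB, which both encode enzymes that cut peptidoglycan, were higher with both arrays (18.2%). PGRP-SB1 read 1700.3 and 2024.8 in sechellia, against 514.4 and 592.0 in simulans (1.75 ± 0.21, adjusted p = 0.0033; array 2 alone 1.88; quantile 1.98). PGRP-LB read 640.5 and 717.2, against 272.7 and 274.4 (1.31; array 2 alone 1.39; quantile 1.07, adjusted p = 0.122). The median of the group relative to all genes was 0.23, 0.76 and 0.07. Array 2 alone called 3 higher and 2 lower (45.5%), and quantile normalisation 1 higher (9.09%). Of the 3 lysozyme genes, LysP was lower with both arrays, at 253.3 and 330.9 in sechellia against 800.8 and 851.4 in simulans (-1.51, adjusted p = 0.0158; quantile -2.18, adjusted p = 0.105), and all 3 were lower with array 2 alone, where LysP, LysX and LysS stood at -1.32, -3.25 and -2.01. After quantile normalisation LysX was the lysozyme gene that passed (-3.51, adjusted p = 0.0349). LysS read 742.7 and 174.7 on the 2 sechellia arrays, against 722.1 and 687.5 in simulans. Of the 5 Turandot stress peptide genes none passed with both arrays, and TotE passed with array 2 alone (2.27, adjusted p = 0.0383; both arrays 3.69, adjusted p = 0.072; quantile 3.23, adjusted p = 0.108).

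**Figure D5:**
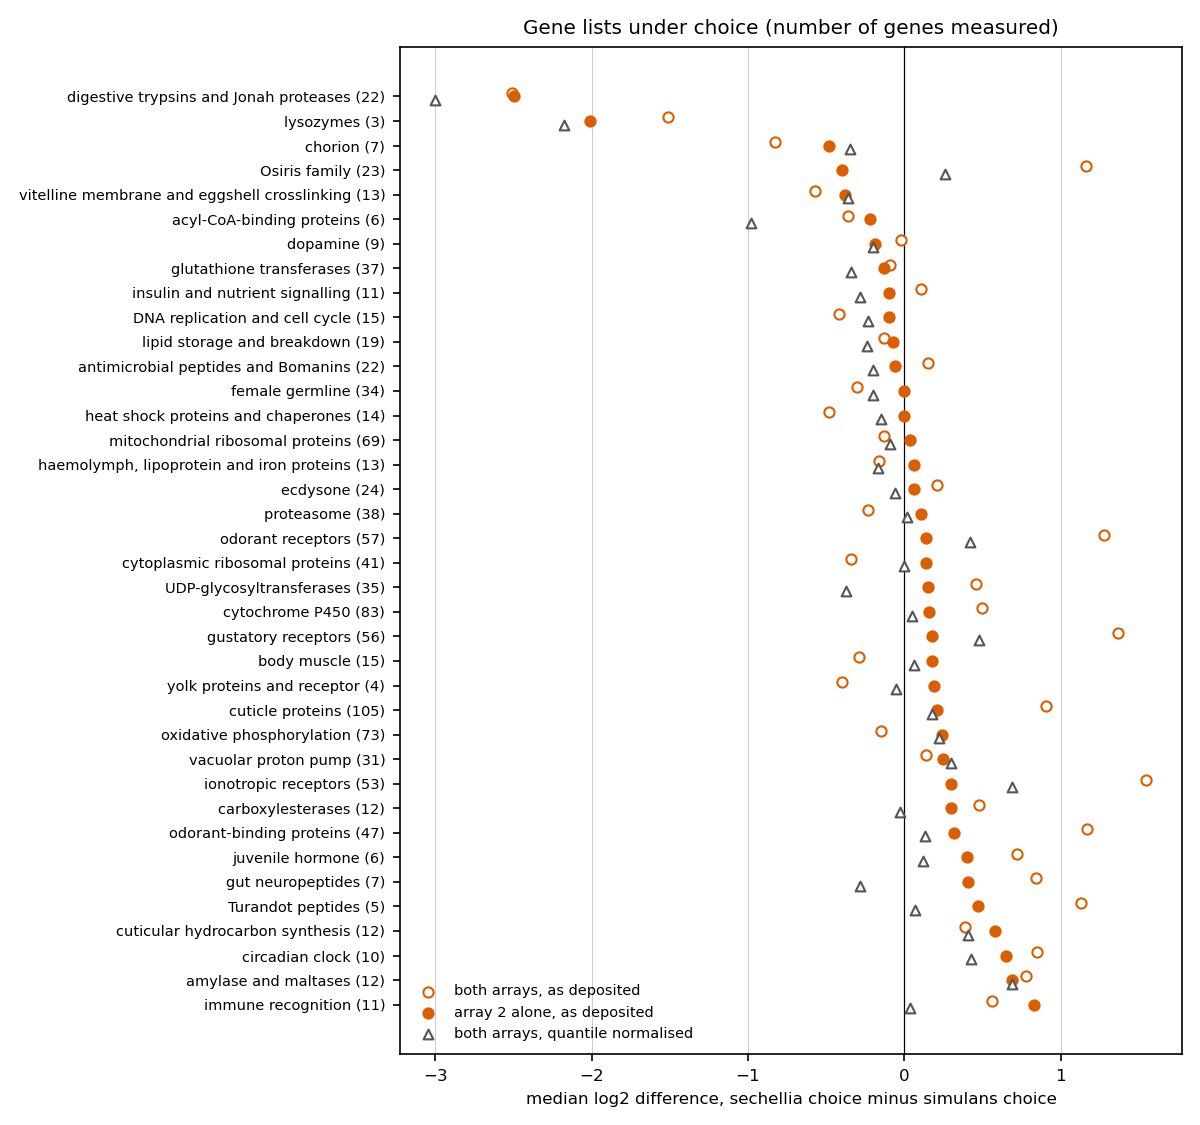
Median log2 difference, sechellia choice minus simulans choice, over the measured genes of each group (number in brackets), as deposited with both sechellia arrays (open circles), with array 2 alone (filled circles) and after quantile normalisation (triangles). The proteases lie lowest, at -2.51, -2.50 and -3.0; groups of dim genes such as the ionotropic receptors lie at 1.55 with both arrays and at 0.30 with array 2 alone.

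Lsp2, a storage protein gene of the haemolymph, read 866.5 and 1056.4 in sechellia, against 409.1 and 413.2 in simulans (1.22, adjusted p = 0.0169; array 2 alone 1.36; quantile 1.19). Of 11 insulin and nutrient signalling genes, tobi was the single call with both arrays and after quantile normalisation (9.09%), and array 2 alone called 2 higher (18.2%). cyc, the partner of Clock in the circadian clock, read 855.0 and 1227.9 in sechellia, against 334.8 and 330.2 in simulans (1.62, adjusted p = 0.00718; array 2 alone 1.89; quantile 1.58), and was the single call among 10 clock genes with both arrays and after quantile normalisation (10%). Array 2 alone added tim (1.74), cry (0.89) and cwo (0.55), making 40%; with both arrays these gave 1.12, 0.92 and 0.22, and after quantile normalisation 1.15, 0.68 and 0.39. The 6 juvenile hormone, 24 ecdysone, 7 gut neuropeptide and 9 dopamine genes held no call with both arrays or after quantile normalisation. With array 2 alone they held 1, 5, 0 and 0 (16.7% and 20.8% in the groups with calls); the juvenile hormone call was Jheh2, an epoxide hydrolase gene, at 0.45 with array 2 alone, -0.01 with both arrays and 0.35 after quantile normalisation.

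Of 73 oxidative phosphorylation genes, which power ATP synthesis in mitochondria, none passed with both arrays, with a relative median of -0.48. Array 2 alone called 22 higher and 1 lower (31.5%, beside 15.5% of all genes), with a relative median of 0.17, and quantile normalisation called 10 higher (13.7%, beside 3.33%), with a relative median of 0.25. Array 1 read 53 of the 73 below both simulans arrays, and array 2 read 48 of them above both. For all 18769 probe sets these counts were 5143 and 8248. Cyt-c1, of complex III of the respiratory chain, had the largest of these differences, at 6627.1 and 15427.1 in sechellia against 8709.2 and 9080.0 in simulans (0.80 with array 2 alone, adjusted p = 0.000876; 0.64 after quantile normalisation; 0.18 with both arrays). Among 31 genes of the vacuolar proton pump, which acidifies organelles and the gut lumen, Vha100-5 was higher with both arrays, at 1429.5 and 2052.4 against 655.4 and 630.1 (1.41, adjusted p = 0.0109; array 2 alone 1.68; quantile 1.60), and array 2 alone called 5 higher (16.1%) and quantile normalisation 4 (12.9%). Hsp110, a chaperone gene, was the single call among 14 heat shock genes with both arrays, lower at -1.32 (adjusted p = 0.0107; array 2 alone -1.19; quantile -0.96), and array 2 alone and quantile normalisation each called 2 lower. None of 15 muscle, 41 cytoplasmic ribosomal, 69 mitochondrial ribosomal, 38 proteasome, 105 cuticle and 15 replication and cell cycle genes passed with both arrays. In that order, array 2 alone called 4, 0, 5, 7, 3 and 0 of them higher and 1, 1, 8, 2, 1 and 4 lower, which is 33.3%, 2.44%, 18.8%, 23.7%, 3.81% and 26.7%. Quantile normalisation called 3, 0, 1, 4, 0 and 0 higher, and 1 proteasome and 1 cuticle gene lower. Their relative medians lay between -0.75 and 0.58 with both arrays and between -0.17 and 0.14 with array 2 alone.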

How the data were processed

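The data are 8 one-colour Affymetrix arrays. Each deposited value is the signal of a probe set on a linear scale (an intensity). The submitters' processing notes name MAS5, without version or settings. The mean after trimming 2% at either end was 500 on each array, so the deposited intensities were taken to log2 without further scaling. All 18769 probe sets other than 183 controls were kept, with no filter on dim ones. In the probe annotation 13647 carried 1 D. melanogaster gene symbol, 402 several and 4720 none; the available gene table, of D. sechellia, shares no identifier with it, and no position or sequence is given.

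The 4 groups of 2 arrays entered a cell-means model in limma (version 3.58.1, R version 4.3.3; lmFit, eBayes with an intensity trend, 4 residual degrees of freedom, 3 with 7 arrays). Differences are sechellia minus simulans, ± is the standard error of the fit, and a probe set is called where its p, adjusted by Benjamini-Hochberg over all 18769, is below 0.05. The replicate numbers do not pair the arrays: deviations of same-numbered arrays correlated at -0.097 to 0.021. Background is an array's median over 27 Bacillus control probe sets; where every array of a group lay at or below it, signals were raised to it and a bound is given.

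A gene in a list stands by its brightest probe set. Named genes are those with 1 symbol and a call, the same sign with array 2 alone and after quantile normalisation, and the 12 largest differences per direction, up to 3 called members per direction of each list, all members of lists of up to 10 and of the Morinda list, and the 6 largest differences between treatments per direction. Other list members are named to show a range or a call with array 2 alone and were chosen after their values were seen. The comparison and the lists were chosen with earlier results of these data known. Alternatives were leaving out each array, 2 other scalings, array weights, the 4 arrays alone, a filter on the dimmest 30%, an offset of 50, no trend and a replicate block. Raising signals to background in the fit of 7 arrays was added after seeing the data.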

Additional observations from a re-analysis of the deposited data

Results flagged for a closer look

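Jon65Aiv and CG2233 were singled out because their species difference under choice differed from that without choice, by the test of that difference itself (limma, 8 arrays). In Jon65Aiv the difference under choice was higher by 5.29 (adjusted p = 0.00533), with sechellia at 320.4 and 214.2 under choice and 4.6 and 7.9 without. Those readings without choice lay below background, and with signals raised to background the difference was 3.79 with both arrays and 3.50 with array 2 alone. In CG2233 it was higher by 2.66 (adjusted p = 0.0258), with sechellia at 1833.7 and 1576.6 under choice and 297.8 and 274.7 without. In both genes the 2 sechellia choice arrays gave like values, and the test also passed with array 2 alone, at 5.0 and 2.55. After quantile normalisation it did not pass in either gene, at 4.36 (adjusted p = 0.0656) and 2.78 (adjusted p = 0.133).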

How the results depend on the processing

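The count of 483 called under choice ranged from 65 to 12382 when each array was left out: 2265 without sechellia choice array 1, 12382 without its array 2, 68 and 65 without simulans choice arrays 1 and 2, and 166 to 174 without an array of no choice. That of choice minus no choice, 2, ranged from 0 to 8964, and that without choice, 508, from 124 to 3512. Median centring gave 73, 0 and 92 for the 3 counts; quantile normalisation of 7 arrays gave 2481, 313 and 3559; array weights gave 112, 13 and 3523; and no trend gave 25, 0 and 66. The 4 choice arrays alone gave 60, the 4 no-choice arrays alone 3095, and signals raised to background on 7 arrays 2461, 389 and 3664. An offset of 50 left 0 of the 2 differences between treatments. The causes of these shifts were not tested. Each fit that leaves out 1 array has 3 residual degrees of freedom, against 4 with all 8 arrays, whether its count rose or fell.

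The replicate numbers do not pair the arrays; with a replicate block 377, 1 and 437 were called. No called named gene turned its sign in any of these settings. Naming required the same sign with array 2 alone and after quantile normalisation, so in those settings this was fixed in advance. Of 66 called named genes, 46 kept their call after quantile normalisation, 25 after median centring and 13 with no trend. Of named genes not called with both arrays, leaving out each array gave Acbp3 -0.51 to 0.47, Jheh2 -0.47 to 0.45, Yp3 -0.37 to 0.39 and CG33978 -4.63 to 2.25, with the sechellia choice arrays at both ends. With 7 arrays, quantile normalised and raised to background, Acbp3 gave 0.50 and 0.47 and Jheh2 0.48 and 0.45, and Cp7Fc turned to 0.33 when quantile normalised. Low signal also limits some sizes: simulans lay below background on both arrays in 5 of the 483 (Nepl19, CG31380, CG4438, squ and a probe set with no symbol).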
